A study of Canis lupus familiaris with 77 samples.

Results

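cfa-miR-375 and cfa-miR-7 are the dog forms of a pair of microRNAs (miRNAs) that other mammals use in hormone-secreting cells, and their levels are described here across 16 tissues of the beagle dog. The members were taken as the rows of the expression table whose miRNA name begins, up to its first separator, with cfa-miR-375 or cfa-miR-7. This gave 2 of the 650 miRNAs detected in the series. The first row also carries the names of human miR-375 and rat miR-375-3p. The other row carries human miR-7-5p, rat miR-7a-5p and human miR-3529-3p, so reads of these sequences could not be told apart.

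All samples came from 5 untreated male beagle dogs that were 10 months old, were obtained from Marshall and were perfused with phosphate-buffered saline at necropsy. No group received a drug or carried an altered allele, so the tissues are the only groups. Small RNA of brain, heart, liver, lung, kidney, pancreas, testis, thymus, skeletal muscle, duodenum, jejunum, ileum, bone marrow and plasma was read in 5 libraries each, that of colon in 4 and that of sciatic nerve in 2, which makes 76 libraries. The sources differ on whether a sciatic nerve library came from an individual or from pooled dogs, and no label ties a library to its dog. Bone marrow RNA was isolated with another reagent than that of the solid tissues, so tissue and isolation method cannot be told apart there. Plasma RNA was taken from a volume of fluid, with no reagent named in the sources used here. The paper also reports low RNA integrity in plasma and bone marrow, and a lower share of mapped reads in bone marrow. Some kidney samples had very low integrity too, with a share of mapped reads like that of kidney samples of high integrity. Thymus varied most in mapped reads and miRNAs detected, which the paper proposes could relate to uneven sampling at harvest. The part of RNA quality in the levels of these tissues was not tested.

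Depth lay between 157871 and 7896424 miRNA reads, 1364823 at the median, and the bone marrow libraries were shallow, with 162310 to 239023. Levels are given as RPM, the share of a library's miRNA reads scaled to 1000000 reads, and an absent row as 0. Where a library has 0 reads, the largest level that this allows, at 3 reads, was between 1.92 and 19.0 RPM for miR-7. These limits and the Wilson 95% intervals below cover counting error only. The same holds for the exact Poisson intervals and the intervals of summed levels, which leave out the spread between libraries. The pancreas, brain and bone marrow libraries carried the miRNAs that define their tissues. The acinar sum (miR-216a, miR-216b and miR-217) was 11952 to 17110 RPM in the pancreas, the neuron sum (miR-124, miR-128 and miR-9) 42495 to 90728 RPM in the brain, and miR-223 of myeloid cells 2727 to 5871 RPM in bone marrow. A few libraries of other tissues were low in their own markers. Skeletal muscle library 4 had a striated muscle sum of 735 RPM against 39180 to 116406 RPM in the other 4, and thymus libraries 2, 3 and 5 had leukocyte sums of 424, 513 and 1000 RPM against 18966 and 15167 RPM in libraries 1 and 4. Duodenum library 4 had 5976 RPM of intestinal epithelium miRNAs against 23478 to 521024 RPM in the other 4.

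A miRNA is cut from a hairpin precursor, whose arms give a 5p and a 3p sequence, and the arm that is loaded into an Argonaute protein guides it to messenger RNAs. miR-375 is among the most abundant miRNAs of the endocrine pancreas, where it restrains insulin secretion and supports the mass of the alpha and beta cells, and it also occurs in secretory epithelium. miR-7 is made from several precursors, is found in neurons, pituitary and islets, and dampens growth factor and mTOR signalling. In the dog gene annotation of another assembly (UU_Cfam_GSD_1.0, used for neighbours only), MIR375 lies between CRYBA2 and CFAP65, MIR7-1 lies inside the protein-coding gene HNRNPK, MIR7-2 lies between DET1 and AEN, and MIR7-3 overlaps a long non-coding RNA between FEM1A and DPP9.

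miR-375 was far higher in the pancreas than in any other tissue. The pancreas libraries held 114179, 129420, 148274, 162447 and 167150 RPM, a mean of 144294 ± 22338 RPM (SD, n = 5). The lowest of these libraries was above the highest library of any other tissue, a colon library at 9922 RPM. In the pancreas miR-375 took between 11.4% (Wilson 95% interval 11.4% to 11.5%) and 16.7% (16.6% to 16.8%) of all miRNA reads and ranked 2 among the miRNAs, behind miR-148a. Of the 1399380 miR-375 reads in all libraries, 83.6% came from the pancreas.

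The pancreas mean was 83.2-fold that of all other samples together (exact two-sided rank-sum test, Benjamini-Hochberg adjusted p = 3.98e-06). A miRNA was called tissue enriched (TE) where this fold was above 5, the adjusted p was under 0.05 and the highest tissue median was above 100 RPM. By this rule 3.56% of the 478 miRNAs tested in the pancreas were TE, and miR-375 was among them. The pancreas median was 14.9 times the highest single library of the other tissues, above the limit of 5 for high enrichment in 1 tissue. In a count model over all tissues (edgeR quasi-likelihood), miR-375 was higher in the pancreas than in the mean of the other 15 tissues by 8.71 ± 0.42 on the log2 scale (SE, adjusted p = 1.97e-29), where 21.2% of 480 miRNAs were called higher.

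**Figure D1:**
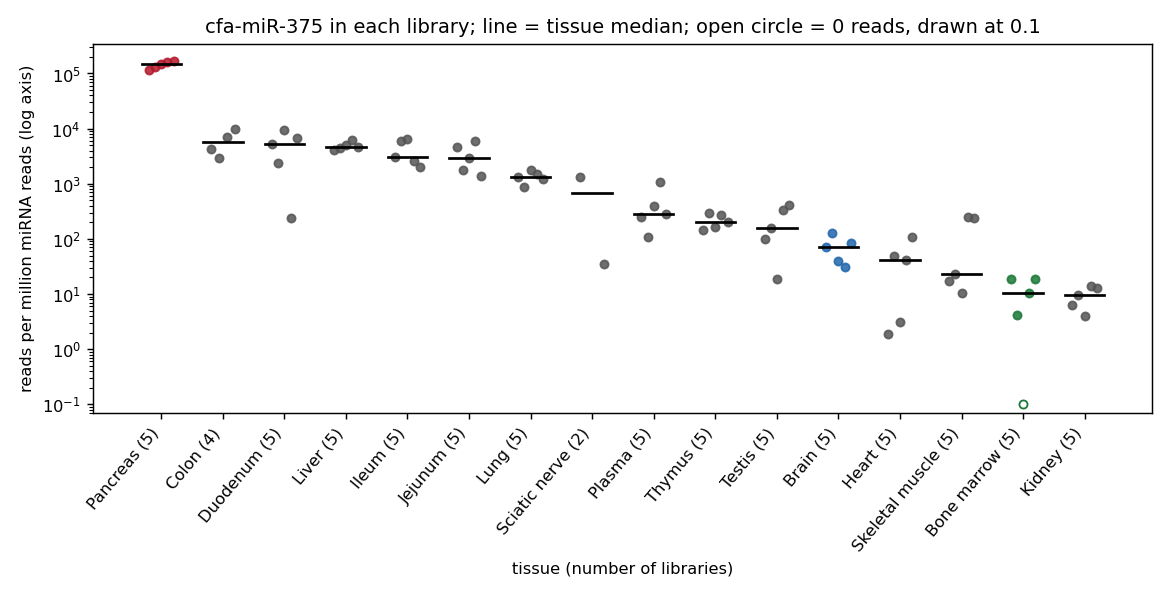
Level of cfa-miR-375 in each of the 76 libraries, in RPM on a log axis, with tissues ordered by their median (line). The 5 pancreas libraries (red) sit between 114179 and 167150 RPM, and no other library exceeds 9922 RPM.

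The tissues next in order were the intestine, liver and lung. The 4 colon libraries held 4241, 2940, 7183 and 9922 RPM. The 5 duodenum libraries held 5272, 2342, 9407, 239 and 6689 RPM, so the lowest lay far below the others. Ileum ranged from 2000 to 6545 RPM and jejunum from 1389 to 6019 RPM. These 4 gut segments overlapped in full or in large part.

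Liver was the tightest of the tissues outside the pancreas. Its libraries held 4091, 4467, 5093, 6334 and 4579 RPM, a coefficient of variation of 17.7% against 75.2% in the duodenum. Lung held 889 to 1769 RPM. The liver median was 3.09% and the lung median 0.887% of the pancreas median.

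Each contrast of the pancreas with a gut segment, liver or lung was called for miR-375 in the edgeR fit. The log2 difference was 4.77 ± 0.92 against colon, where 36.5% of all miRNAs were called in either direction, and 4.83 ± 0.84 against duodenum (35.6% called). It was 4.98 ± 0.84 against liver (36.0% called), 5.50 ± 0.87 against ileum (37.5% called) and 5.70 ± 0.87 against jejunum (38.3% called). It was 7.21 ± 0.94 against lung (44.6% called). The largest of these 6 adjusted p-values was 2.52e-05, for colon.

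Between the gut segments no difference in miR-375 was called. The log2 difference was 0.87 between duodenum and jejunum (95% interval -0.57 to 2.30, 9.38% of miRNAs called), -0.19 between jejunum and ileum (-1.62 to 1.23, 3.75% called), -0.73 between ileum and colon (-2.24 to 0.77, 0.208% called) and -0.06 between duodenum and colon (-1.57 to 1.45, 5.21% called). Liver against duodenum gave -0.15 (-1.57 to 1.28, adjusted p = 0.943, 38.8% called). These intervals leave room for differences of more than 1 log2 unit.

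In the intestine the level of miR-375 and the markers of epithelium and muscle wall both varied between libraries, and their order differed between segments. The duodenum library at 239 RPM also had the lowest epithelial sum (miR-200a, miR-200b, miR-200c, miR-141 and miR-429) of the gut, 207 RPM, and 5976 RPM of the intestinal epithelium sum (miR-192, miR-194 and miR-215). Its smooth muscle sum (miR-143 and miR-145) was 412923 RPM. The duodenum library at 9407 RPM had an epithelial sum of 1751 RPM and a smooth muscle sum of 615456 RPM, the highest of the gut. The libraries richest in epithelial miRNAs in these segments were not the highest in miR-375. They held 2342 RPM beside an epithelial sum of 19673 RPM in duodenum library 2 and 1791 RPM beside 23613 RPM in jejunum library 2. In colon, miR-375 rose with the intestinal epithelium sum and fell with the smooth muscle sum. It went from 2940 RPM beside 110885 and 441136 RPM to 9922 RPM beside 219198 and 135117 RPM. The ileum libraries at 6006 and 6545 RPM had epithelial sums of 6418 and 4778 RPM, against 1586 to 4014 RPM in the others. The part of cell makeup in these levels was not tested, and in bulk samples fewer cells of a type and less RNA per cell cannot be told apart.

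The other tissues were spread over a wide range of low miR-375 levels. Thymus held 143 to 291 RPM, plasma 110 to 1055 RPM, testis 18.7 to 414 RPM and brain 30.5 to 127 RPM. The testis library at 18.7 RPM was the deepest of its tissue, at 2027090 reads. Thymus showed no such order, with 291 RPM at 157871 reads and 277 RPM at 3418708. Skeletal muscle held 17.5, 23.4, 10.6, 249 and 244 RPM, so 2 libraries stood above the other 3. These 2 were the shallowest of the tissue, at 220445 and 315775 reads, and the part of depth in these levels was not tested. The library at 249 RPM is library 4, with little striated muscle miRNA and the highest erythroid sum (miR-144, miR-451 and miR-486) of the tissue, 171907 RPM against 48482 to 106449 RPM, and the part of these in its level was not tested. The sciatic nerve libraries held 1303 and 35.2 RPM, far apart for libraries of 1 tissue. Heart held 1.90, 50.0, 3.11, 40.8 and 107 RPM, and kidney 4.07 to 14.2 RPM.

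Bone marrow was at the bottom of the order with kidney. Its 5 libraries had 3, 1, 0, 2 and 4 reads of miR-375, together 10.1 RPM (exact Poisson 95% interval 4.83 to 18.5 RPM). The library without a read allows up to 16.2 RPM. Against the mean of the other tissues the edgeR difference was -6.72 ± 0.95 in bone marrow (adjusted p = 1.70e-08, 24.6% of miRNAs called lower) and -4.29 ± 0.75 in brain (adjusted p = 7.16e-07, 28.1% called lower). Bone marrow was below thymus by 4.82 ± 0.97 on the log2 scale (37.7% of miRNAs called in either direction) and below plasma by 6.55 ± 1.01 (43.1% called), and both were called. The thymus contrast stayed called without thymus libraries 2, 3 and 5 and skeletal muscle library 4 (-4.37, adjusted p = 0.00138). The summed level was 22.4 times higher in thymus (95% interval of counting error 12.2 to 46.8) and 44.2 times higher in plasma (24.0 to 92.3) than in bone marrow.

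Reads of pancreatic acinar miRNAs accompanied miR-375 in several low libraries. In the pancreas there were between 9.47 and 12.7 reads of miR-375 for each read of miR-216a, miR-216b or miR-217. Ratios of single libraries were formed only above 3 acinar reads, and several rest on few reads. In heart library 5, the highest heart library, the ratio was 7.84, from 19 acinar reads. In the 2 highest testis libraries it was 18.0 and 11.9, from 4 and 10 acinar reads. Skeletal muscle library 5 had 15.4 (5 acinar reads), the plasma libraries had 11.5 to 25.6 (6 to 88), and 2 kidney libraries had 20.5 and 16.5 (4 each). This limit also caps the ratio where miR-375 reads are few. Testis library 4 and kidney libraries 4 and 5, with 72, 82 and 66 reads of miR-375, could have no higher ratio. Libraries with fewer acinar reads have no ratio, such as thymus library 3 with 289 reads of miR-375 beside 2 acinar reads. Brain library 5 had 194 beside 2, and testis library 1 had 27 beside 0. Among heart, testis, muscle, plasma and kidney, only testis library 5 (11.9) and plasma library 1 (11.5) lay within the pancreas range. Other low libraries had 1.86 (brain library 3), 37.3 (brain library 2) and 45.1 (thymus library 4). The sciatic nerve library at 1303 RPM had 18 acinar reads and a ratio of 70.3, and the library at 35.2 RPM had none. In each plasma library most acinar reads were of miR-216a, so the mix of the markers differed from that of the pancreas. Plasma library 4 had 80 reads of miR-216a, 5 of miR-216b and 3 of miR-217, and pancreas library 1 had 10142, 9906 and 6723.

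Liver, gut and lung stood apart from this ratio. Summed over libraries there were 524 reads of miR-375 for each acinar read in liver, 1624 in colon, 1309 in ileum, 779 in duodenum, 219 in jejunum and 2305 in lung, where only 4 acinar reads were seen. The libraries nearest the pancreas ratio were liver library 4 at 132 and jejunum library 5 at 52.4. Bone marrow had 0 acinar reads, with 3 of 3 markers at 0 in every library. The part of pancreatic RNA in the low levels of heart, muscle, testis, plasma and nerve was not tested.

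**Figure D2:**
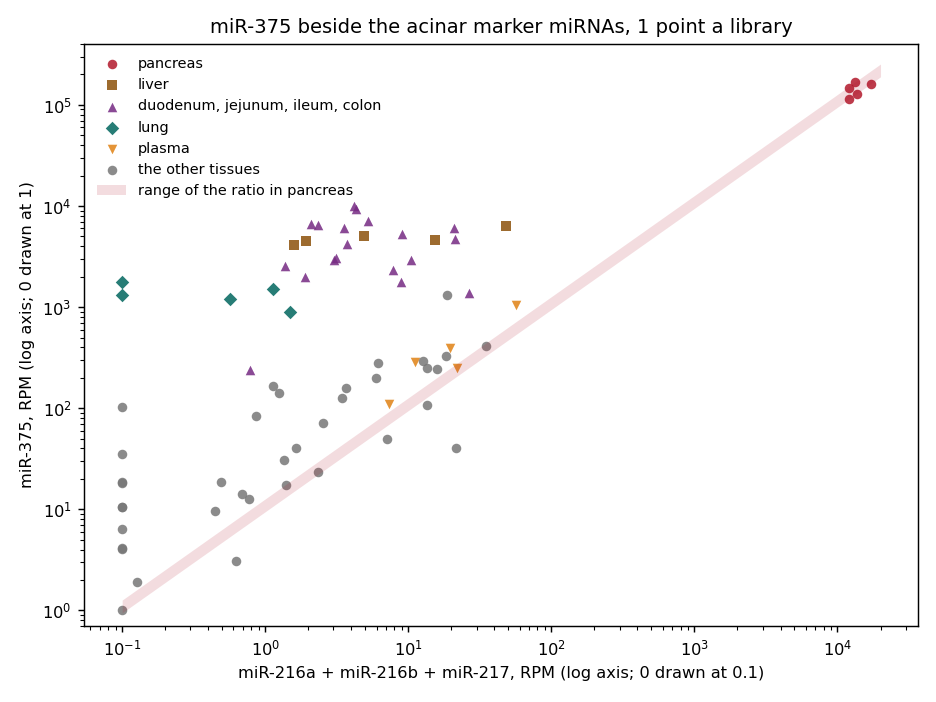
miR-375 against the sum of miR-216a, miR-216b and miR-217 in each library, both in RPM on log axes, with the band of ratios seen in the pancreas (9.47 to 12.7). Liver (squares), gut (upward triangles) and lung (diamonds) lie above the band. Plasma, whose acinar reads are mostly miR-216a, and several libraries of other tissues lie near it, and a brain library lies below it.

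miR-7 was highest in brain and bone marrow, at levels far below those of miR-375 in the pancreas. The brain libraries held 559, 327, 49.1, 224 and 117 RPM, a mean of 255 ± 200 RPM (SD, n = 5). The bone marrow libraries held 185, 167, 357, 222 and 138 RPM, a mean of 214 ± 85.5 RPM (SD, n = 5). The groups overlapped, and brain held both the highest and the lowest of these 10 libraries. The bone marrow levels rest on 30 to 66 reads a library, so that the lowest, 138 RPM, has a Wilson 95% interval of 96.6 to 197 RPM.

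By the rank-sum rule miR-7 was TE in both tissues. The fold over all other samples was 7.98 in brain (exact rank-sum test, adjusted p = 2.37e-04), where 14.0% of 551 miRNAs were TE, and 6.13 in bone marrow (adjusted p = 3.21e-04), where 2.62% of 382 were TE. With TMM scaling, which corrects for the makeup of each library, the brain fold was 3.98, and with DESeq2 size factors 4.11. Both lie under the limit of 5, so the brain call was lost, while bone marrow stayed above it at 6.10 and 5.51. The bone marrow median was 82.7% of the brain median and the pancreas median 18.1%, within the limits of 70% and 20% for high enrichment in 2 tissues. With TMM scaling bone marrow came first, brain was at 59.8% and pancreas at 35.9% of it, and with DESeq2 size factors at 69.6% and 42.6%, so this call did not hold under either scaling.

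In the edgeR fit miR-7 was higher than the mean of the other tissues by 3.39 ± 0.25 in brain (adjusted p = 1.00e-19, 45.2% of miRNAs called higher), by 3.87 ± 0.27 in bone marrow (adjusted p = 2.64e-20, 16.5% called higher) and by 2.31 ± 0.28 in pancreas (adjusted p = 1.65e-10). The scaling sets the zero of these contrasts. The median log2 difference of all 480 miRNAs was 0.13 in brain, -0.97 in bone marrow and -0.38 in pancreas with TMM, and 1.22, -0.66 and -0.55 with library size alone. Relative to this median, miR-7 stood 3.26 higher in brain, 4.85 in bone marrow and 2.69 in pancreas with TMM, and 3.40, 5.01 and 2.69 with library size alone. miR-375 in the pancreas stood 9.09 and 9.06 above it. Against all other samples taken as 1 group, the pancreas difference of miR-7 was 0.92 (adjusted p = 0.414) and was not called.

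Brain and bone marrow were not shown to differ in miR-7. The log2 difference was -0.46 (95% interval -1.35 to 0.43, adjusted p = 0.368), in a contrast in which 68.1% of miRNAs were called, and 0.25 with library size alone. It was also 0.25 without the 4 thymus and skeletal muscle libraries low in their own markers, which enter the scaling and the shared spread. Without bone marrow library 1 or 5 it was -1.09 with adjusted p = 0.0436 and 0.0437. In the same contrast miR-375 was higher in brain by 2.28 ± 0.95 (adjusted p = 0.0305). This call was lost when any of 8 of the 10 libraries was left out, among them each bone marrow library, with log2 differences of 1.53 to 2.64 over the 10. The TMM scaling was recomputed in each of these fits, so a shift need not come from the library left out alone.

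**Figure D3:**
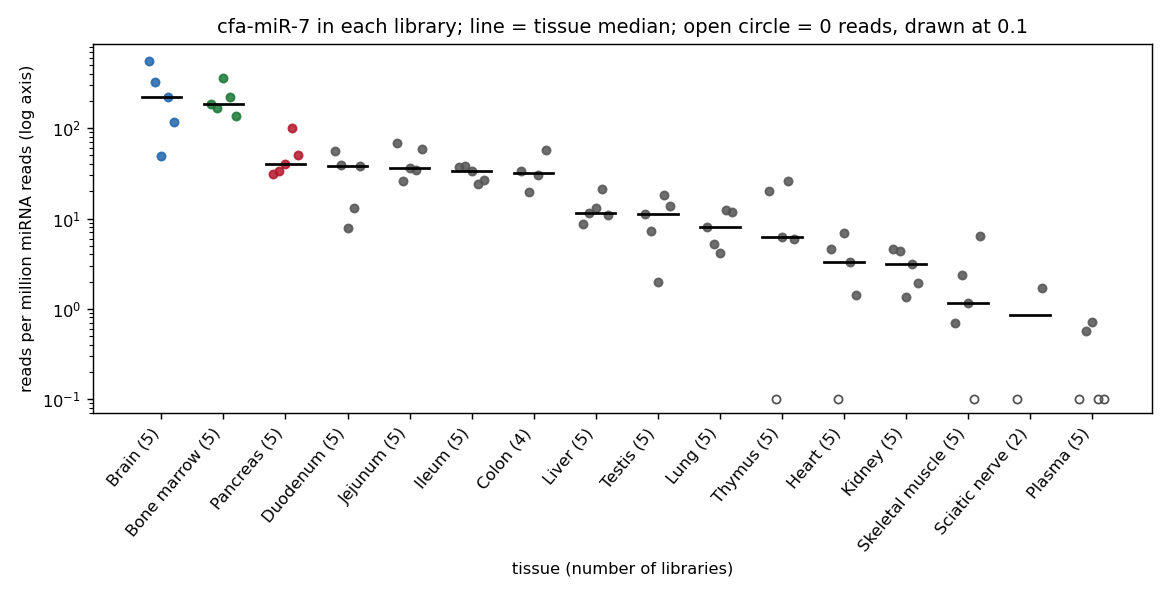
Level of cfa-miR-7 in each of the 76 libraries, in RPM on a log axis, with tissues ordered by their median (line) and libraries without a read drawn as open circles at 0.1. Brain (blue, 49.1 to 559 RPM) and bone marrow (green, 138 to 357 RPM) overlap each other, and bone marrow lies above pancreas (red, 30.9 to 100 RPM).

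The brain library at 49.1 RPM of miR-7 differed from the other 4 brain libraries in other miRNAs too. Its intestinal epithelium sum was 23995 RPM against 2637 to 3202 RPM in the others, and its acinar sum was 21.6 RPM against 0.87 to 3.42 RPM. Its neuron sum, 68096 RPM, lay within the range of the other brain libraries. Their part in its level of miR-7 was not tested. Without this library, one duodenum library (239 RPM of miR-375) and the sciatic nerve library at 1303 RPM of miR-375, the brain fold of miR-7 was 9.38 and the bone marrow median 67.1% of the brain median, under the limit of 70%.

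The pancreas was the third tissue in the order of miR-7. Its libraries held 30.9, 33.4, 40.4, 100 and 50.4 RPM. The same libraries carried the extreme level of miR-375, and the library with the most miR-7 was not the one with the most miR-375. Bone marrow exceeded pancreas by 1.47 ± 0.46 on the log2 scale (adjusted p = 0.00608, 42.7% of miRNAs called), and their ranges did not overlap. Leaving out each library of both tissues in turn gave 1.42 to 2.32, the highest without pancreas library 4 (100 RPM), and it stayed called.

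Pancreas was below brain by 1.01 ± 0.44 (adjusted p = 0.0367, 74.4% of miRNAs called). This call was lost in a fit of the 2 tissues only (-0.92, adjusted p = 0.0813), and the difference was -2.32 with library size alone. Without brain library 1 it was -0.32 (adjusted p = 0.541). miR-375 differed between the same tissues by 12.2 ± 1.13 in the other direction (adjusted p = 9.32e-15).

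The gut segments held levels of miR-7 near that of the pancreas. Over the 19 gut libraries miR-7 ranged from 7.93 to 69.4 RPM, with a median of 34.7 RPM. The duodenum libraries held 56.4, 39.4, 7.93, 13.2 and 37.9 RPM, with the 2 lowest in the libraries of low epithelial sums described above. The pancreas difference was 0.73 against duodenum (95% interval -0.17 to 1.63), 0.31 against jejunum (-0.58 to 1.20), 0.90 against ileum (0.00 to 1.80, adjusted p = 0.112) and 0.60 against colon (-0.35 to 1.55), and none was called. Without thymus libraries 2, 3 and 5 and skeletal muscle library 4 the ileum difference was 1.25 and was called (adjusted p = 0.0118). Among the gut segments themselves the log2 differences lay between -0.42 and 0.59, with adjusted p-values from 0.526 to 0.963. Fitted on the pancreas and ileum alone, their difference was 0.96 and was called (adjusted p = 0.0116).

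Liver and lung, which carried much miR-375, carried little miR-7. Liver held 8.77, 11.6, 13.0, 21.4 and 10.8 RPM and lung 4.12 to 12.5 RPM. The pancreas was higher than liver by 2.01 ± 0.48 (adjusted p = 3.87e-04) and higher than lung by 2.96 ± 0.50 (adjusted p = 1.48e-06). Liver was below duodenum by 1.28 ± 0.47 (adjusted p = 0.0272), a call that was lost with library size alone (-1.24, adjusted p = 0.0678).

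Plasma and sciatic nerve were nearly devoid of miR-7. The 5 plasma libraries had 0, 1, 1, 0 and 0 reads among 2 in total, or 0.31 RPM (exact Poisson 95% interval 0.04 to 1.12 RPM). Summed over libraries, the level was 675 times higher in bone marrow than in plasma (95% interval of counting error 184 to 5608). The 2 sciatic nerve libraries had 0 and 2 reads, and the summed level in brain was 238 times higher (65.9 to 1969). The edgeR contrast was called for both pairs, with adjusted p = 6.91e-15 against plasma and adjusted p = 2.11e-08 against sciatic nerve, where 45.0% of miRNAs were called. For miR-375 the contrast of brain with sciatic nerve was -3.81 ± 0.90 (adjusted p = 4.17e-04), and it turned to 0.42 (adjusted p = 0.832) without the sciatic nerve library at 1303 RPM.

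The remaining tissues held little miR-7. Testis held 1.97 to 18.2 RPM, thymus 0 to 25.7 RPM, heart 0 to 6.85 RPM, kidney 1.36 to 4.59 RPM and skeletal muscle 0 to 6.33 RPM. Over the series miR-7 had at least 1 read in 69 libraries and miR-375 in 75. Bone marrow was above thymus, a lymphoid organ, by 3.60 ± 0.51 (adjusted p = 1.87e-08). Thymus libraries 1 and 4, rich in leukocyte miRNAs, held 20.01 and 25.7 RPM of miR-7, and libraries 2, 3 and 5, which were low in them, held 0, 6.27 and 5.91 RPM. Without the latter and skeletal muscle library 4, bone marrow was still above thymus, by 3.23 (adjusted p = 8.10e-05).

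Most tissues next to each other in the order of medians could not be told apart. Of the 15 neighbouring pairs of each member, only pancreas and colon for miR-375 and bone marrow and pancreas for miR-7 did not overlap. In exact two-sided permutation tests of mean log2(RPM + 1), 2 neighbouring pairs of each member reached an unadjusted p under 0.05, and 0 of the 30 did after Benjamini-Hochberg adjustment. The smallest p that 5 libraries against 5 or 4 allow is 0.00794, which both non-overlapping pairs had (adjusted p = 0.119). Pairs with sciatic nerve allow no p under 0.0476. Over 30 pairs, 2 at the smallest p could not pass the adjustment, so its result does not show that neighbours are alike. The edgeR fit, which shares the spread over all miRNAs and tissues, called both non-overlapping pairs, as given above. The permutation test reached its other unadjusted values between jejunum and lung for miR-375 (p = 0.0317) and between colon and liver for miR-7 (p = 0.0238).

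The mature miR-7 sequence is shared by its precursors, so its own reads do not show which was used. The opposite arms were read too, and they differed between the tissues rich in miR-7. rno-miR-7a-2-3p, the opposite arm of the precursor MIR7-2, was read 149 times in all. Brain had 86 of these reads, with 16.5, 10.6, 0.49, 16.3 and 6.08 RPM in its libraries. Pancreas had 43, with 2.68, 4.41, 3.30, 11.0 and 8.89 RPM. All 10 libraries of these tissues held the arm, and it was seen in 22 libraries of the series.

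Bone marrow held 0 reads of rno-miR-7a-2-3p beside 208 reads of miR-7. At 3 reads this allows up to 1.44 reads of the arm for each 100 reads of miR-7, against 3.93 in brain and 10.8 in pancreas. Duodenum, with 0 reads beside 216, allows up to 1.39. Jejunum had 1.22, ileum 1.08 and colon 0.41. Summed over libraries, the ratios of pancreas and brain were above the limits of bone marrow and duodenum, but brain library 3, with 1 read of the arm beside 100 of miR-7, was below both limits. Leaving out each library in turn, the summed ratio was 3.33 to 4.57 in brain and 10.1 to 11.6 in pancreas.

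hsa-miR-7-1-3p, the opposite arm of MIR7-1, was read in more tissues. There were 13.6 reads for each 100 reads of miR-7 in brain, 13.2 in pancreas and 4.81 in bone marrow, against 41.2 in duodenum, 43.0 in jejunum, 47.6 in ileum and 43.6 in colon. The brain library with the least miR-7 had 123 reads of this arm and 100 of miR-7, whereas the other 4 had fewer reads of the arm than of miR-7. Without this library the brain ratio was 8.32. The bone marrow ratio was 2.41 without library 4, which had most of its reads of the arm. The pancreas ratio lay between 11.5 and 16.1 with any library left out. In plasma the arm had 95 reads, at 0, 19.3, 10.8, 16.6 and 13.8 RPM, while miR-7 had 2. In bone marrow it had 10 reads and miR-7 had 208, the reverse order. The row is named after human and rat sequences that were placed on the dog genome.

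**Figure D4:**
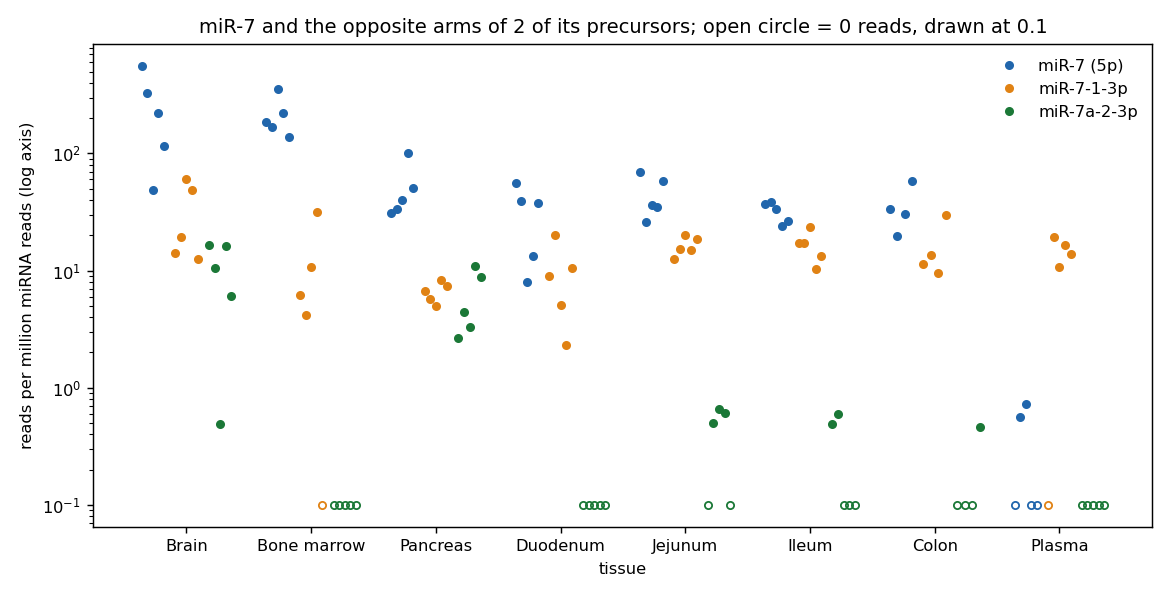
Level of miR-7 (blue), hsa-miR-7-1-3p (orange) and rno-miR-7a-2-3p (green) in each library of 8 tissues, in RPM on a log axis, with libraries without a read as open circles at 0.1. The green arm is present in all brain and pancreas libraries and absent from all bone marrow and plasma libraries, and in plasma the orange arm lies above miR-7.

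The opposite arm of miR-375 was almost absent. rno-miR-375-5p had 14 reads in all, 7 of them in the pancreas beside 1169932 reads of miR-375. That is 167133 reads of the named arm for each read of the other.

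The balance of the members set the tissues in another order than either alone. The log2 ratio of miR-375 to miR-7 reads, with 0.5 added to each, had a median of 11.8 in pancreas (range 10.7 to 11.9) and 8.57 in liver (8.17 to 8.83). Plasma followed with 8.50 (7.02 to 11.7), where miR-7 had at most 1 read a library, and sciatic nerve with 7.68, from libraries at 4.05 and 11.3. Colon had 7.29, lung 7.24, ileum 6.72, duodenum 6.52 and jejunum 6.10. Among the gut segments the duodenum ranged from 4.14 to 10.1, the widest of the 4. Brain had -1.36 (-2.96 to -0.28) and bone marrow -4.09 (-7.06 to -2.76), the tissues in which miR-7 exceeded miR-375 in all 5 libraries. Across the 16 tissue medians the levels of both miRNAs correlated weakly (Pearson r = 0.21 of log2 values, Spearman rho = 0.32), and these points share libraries and depths.

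**Figure D5:**
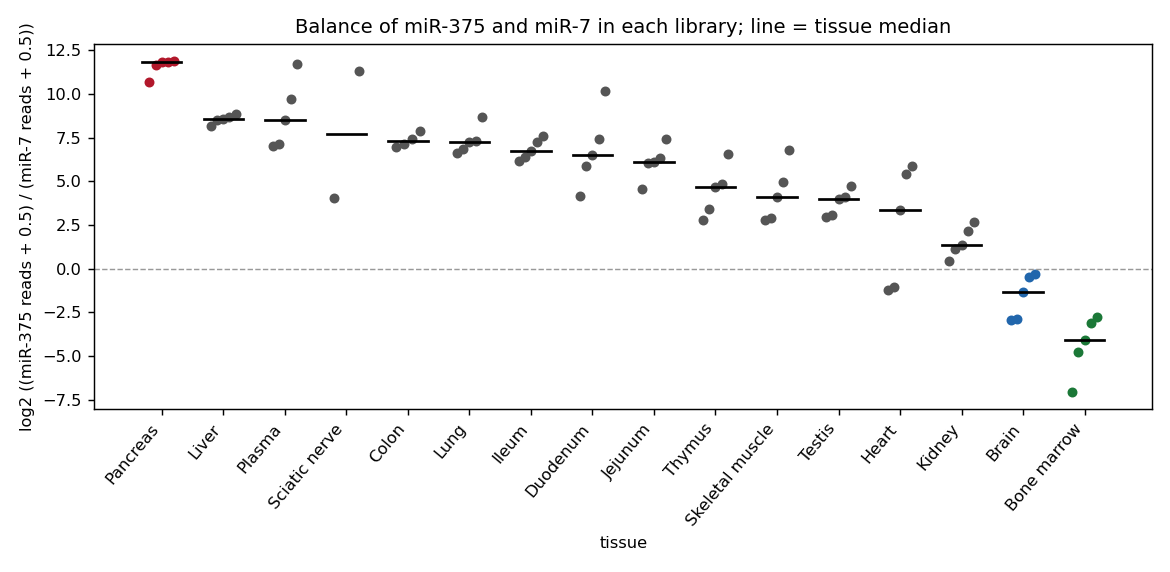
log2 ratio of miR-375 reads to miR-7 reads, with 0.5 added to each, for each library, with tissues ordered by their median (line) and a dashed line at equal reads. All pancreas libraries lie above 10 and all brain (blue) and bone marrow (green) libraries below 0.

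The miRNAs with the tissue pattern most like each member were found among 265 miRNAs by Pearson correlation of log2(median RPM + 1) over the 16 tissues. For miR-375 they were miR-148a (r = 0.83), miR-802 (0.76), miR-182 (0.76), hsa-miR-141-5p (0.76) and miR-200c (0.75). All of these had their highest tissue median in the pancreas, which the choice by likeness to miR-375 favours. The medians ran from 244 RPM for hsa-miR-141-5p to 406344 RPM for miR-148a. For miR-182 the sciatic nerve median, 5835 RPM, was close to the 5938 RPM of the pancreas. For miR-7 they were miR-98 (r = 0.82), miR-148b (0.73), miR-340 (0.70), miR-153 (0.69) and miR-374a (0.66). Of these, miR-98, miR-148b and miR-374a were highest in bone marrow and miR-340 and miR-153 in brain. By Spearman correlation 2 of the 5 for miR-375 and 4 of the 5 for miR-7 were again among the leading 5. These correlations describe 16 points that share libraries and depth.

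Other miRNAs known from islets and neuroendocrine cells were read as a list of 31, which includes the miR-200 family and miR-141 of epithelium, the miR-183 cluster of sensory and neuroendocrine cells, and miR-9 and miR-124 of neurons. All 31 had a row. The list was chosen with earlier results of these data known. Its epithelial members belong to the epithelial sum, which was highest in the pancreas (median 19339 RPM). The counts below therefore do not single out islet cells. In the pancreas 19 of the 31 were called higher in the edgeR fit, 4 lower and 8 neither, against 21.2% higher and 19.2% lower among all 480. The list's median log2 difference was 1.23 and that of all miRNAs -0.38. miR-184 and miR-211 had 0 reads in the pancreas, and with these at the limit of 3 reads the median was 1.23 as well.

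By the TE rule 4 of the list were enriched in the pancreas, where 3.56% of 478 miRNAs were. miR-148a, an abundant miRNA of secretory tissue, was 26.9 times higher than in all other samples, miR-141 was 10.4 times, miR-153 6.50 times and miR-200c 5.07 times higher (adjusted p from 3.98e-06 to 0.00152). miR-375, at 83.2, exceeded each of them. Each listed miRNA was scored by 1 row. For miR-200a this row was 4.05 times higher and not TE, while another row of that name, hsa-miR-200a-3p, was TE at 8.54 times. miR-148a and the acinar miRNAs share the pancreas with miR-375, and the levels of islet and acinar cells cannot be told apart in whole pancreas.

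In brain 15 of the 31 were called higher and 8 lower, shares near the 45.2% higher and 28.1% lower of all miRNAs, and 10 were TE, where 14.0% of 551 miRNAs were. The median was 0.85 against 0.13 for all miRNAs. In bone marrow 4 were called higher and 15 lower, against 16.5% higher and 24.6% lower of all, and 0 were TE, where 2.62% of 382 were. The median was -1.73 against -0.97. With the 7 of the list that had 0 reads there placed at the limit of 3 reads, the median was -1.22.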

How the data were processed

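Total RNA of 16 tissues was sequenced as small RNA by the authors. Per the study's methods, reads were aligned with OSA version 4 without mismatches to the dog genome (CanFam3.1 in the submitters' processing notes), reads with over 10 locations were dropped, and a read was counted where it overlapped 70% of a locus of dog, rat or human miRBase 21. The deposited counts are whole reads per miRNA and library. The deposited RPM, another unit here, is that count over the deposited total of reads counted on miRNAs, and was recomputed. Whether strand was used is not given in the sources used here. 1 labelled colon sample had no values and 1 sample name matched no single label, and both were not used.

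Samples were grouped by their tissue labels. With Python 3.11.15 and scipy 1.17.1, exact rank-sum tests on midranks compared 1 tissue with all other samples, adjusted over the miRNAs detected in that tissue. In R 4.3.3, edgeR 4.0.16 (TMM, filterByExpr, quasi-likelihood, a mean per tissue) was fitted on the counts of all libraries at once, adjusted over 480 miRNAs, with DESeq2 1.42.0 as an alternative. All p-values treat the libraries as independent, though they came from 5 dogs and no label ties a library to its dog. Those of the rank-sum test set 1 tissue against libraries of all other tissues. Those of edgeR use a spread shared over miRNAs and tissues. The tests were checked on simulated counts. No sequences of mature miRNAs were at hand. Named miRNAs are both members, their other arms, the 5 most alike of each, the list of 31 (values for those TE in the pancreas) and markers. The members and lists were chosen with earlier results of these data known. Alternatives were other scalings, references, filters and fits, thinned libraries and leaving out libraries.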

Additional observations from a re-analysis of the deposited data

Results flagged for a closer look

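The level of miR-7 in the pancreas was flagged because 1 library stood apart from the others of its tissue. Its highest library held 100.2 RPM, and the nearest other pancreas library held 50.4 RPM. This gap was 0.719 of the range of the 5 libraries, above Dixon's critical value for 5 samples. Of the 30 combinations of member and tissue with 4 or 5 libraries, this was the only 1 with such a gap, and chance gives about 1 in 20. The same library also held the most rno-miR-7a-2-3p of the pancreas, 11.0 RPM, and the highest acinar sum, 17110 RPM. Without it the log2 difference of miR-7 between bone marrow and pancreas was 2.32 in place of 1.47. Its sums were also the highest of the pancreas for smooth muscle (39282 RPM against 14838 to 17332 RPM), fibroblasts (1753 against 663 to 760 RPM) and endothelium (11817 against 5945 to 7826 RPM). The part of these cells in this level was not tested.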

How the results depend on the processing

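The enrichment of miR-375 in the pancreas kept its direction and call under every alternative run, with folds from 72.7, without bone marrow and plasma, to 535, with medians in place of means. Its median-over-maximum ratio moved to 11.1 with TMM. For miR-7 in brain the fold fell to 3.98 with TMM and to 4.11 with DESeq2 size factors, both under the limit of 5, and rose to 18.8 with medians and to 13.0 without bone marrow and plasma. In bone marrow it ranged from 5.51 to 16.8. Single libraries left out gave 5.61 to 9.60 in brain and 5.11 to 7.81 in bone marrow. The pancreas median of miR-7 moved to 35.9% of the highest with TMM and to 42.6% with DESeq2 size factors, and was 30.0% in thinned libraries, all over the limit of 20%. The third-highest tissue median rose to between 20.3% and 21.9% of the highest when brain library 1 or 2, pancreas library 1 or 2 or jejunum library 2, 3 or 4 was left out, and without one of these jejunum libraries the third tissue was jejunum. Leaving out brain library 3 or 5 lowered the share of bone marrow to 67.1%. The causes were not tested.

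Against all other samples as 1 group, the pancreas difference of miR-7 was 0.92 and not called, and the differences of miR-375 were -10.9 in bone marrow and -8.56 in brain. For pancreas against brain, miR-7 lost its call with DESeq2 size factors (-0.85), in the fit of both tissues only (-0.92) and with DESeq2 (-0.85), and single libraries left out gave -1.36 to -0.32, with 6 of 10 calls lost. For brain against bone marrow, miR-375 lost its call without a filter on low counts (1.94), and single libraries left out gave 1.53 to 2.64 for miR-375 and -1.09 to -0.26 for miR-7. Pancreas against ileum was called for miR-7 in the fit of both tissues only (0.96) and without thymus libraries 2, 3 and 5 and skeletal muscle library 4 (1.25), another alternative chosen after seeing the data. Liver against duodenum lost its call for miR-7 with library size alone (-1.24), and without liver library 1 or 5 or duodenum library 2 or 5, within -1.57 to -1.15. Brain against sciatic nerve reversed for miR-375 to 0.42 without sciatic nerve library 1, within -4.91 to 0.42, and to 0.56 without that library, brain library 3 and duodenum library 4, an alternative chosen after seeing the data, as was that without bone marrow and plasma. The lone sciatic nerve library left is then assumed to vary like the other tissues. For miR-7 the same contrast was 10.6 without sciatic nerve library 2. Of the other alternatives, 316 kept their call or moved by less than the spread between libraries. Differences that changed sign without a call in either setting are among these, such as miR-7 between brain and bone marrow. The total also holds results on order and likeness, which have no call. Some edgeR estimates from all libraries lay outside the range given by leaving out each library of the tissue. For miR-375 this was so in bone marrow (-6.72 against -6.59 to -5.91) and in pancreas (8.71 against 8.55 to 8.67). The scaling was recomputed in each fit, and its part in these shifts was not tested. No paired analysis was possible because the labels carry no dog number that ties libraries of different tissues.

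Depth limits the low values. Bone marrow libraries had 0 to 4 reads of miR-375, and miR-7 had 0 to 1 read in plasma libraries and 0 to 2 in sciatic nerve libraries.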
